A study of Mus musculus with 12 samples.

Results

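The comparison described here sets anti-GZF1 chromatin immunoprecipitation in Gzf1 knockout mouse embryonic stem cells against the same immunoprecipitation in control cells. It rests on 2 of the 12 libraries of the series, 1 a side, and on the 2462755 autosomal bins of 1 kb in the deposited table (mm10), which holds a column for 8 libraries. The knockout library came from Cas9-GFP cells with the genotype Gzf1 knockout. The control library came from Cas9-GFP cells with the genotype control. Both were precipitated with the LSBio antibody against endogenous GZF1 from formaldehyde-fixed chromatin cut with micrococcal nuclease. The labels do not say how the knockout was made, whether it is 1 clone, or what the control cells carry. The other 6 libraries served to place sites: anti-FLAG in Cas9 (clone 35) and RGM (129xCAST, clone 56) cells with ectopic Gzf1-Flag, anti-GZF1 in wild-type Cas9 and RGM cells, and H3K27ac and input of Cas9 cells. The remaining 4 libraries were not analysed here.

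GZF1 is a BTB-domain protein that binds DNA through a row of zinc fingers and was first described as a transcriptional regulator induced by GDNF signalling through the receptor RET. Inherited loss of human GZF1 causes a disorder of joint laxity and short stature. The series is about the IG-DMR, the intergenic region whose methylation on the paternal chromosome sets the imprinted expression of the Dlk1-Dio3 genes. The account below is about sites and genes beyond it.

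With 1 library a side there is no replicate and no test between the genotypes. Each library was divided by its autosomal mean (32.9 reads per bin in the knockout, 35.8 in the control), which gives a density with a mean of 1. The ratio of knockout to control density was divided by the median ratio of its chromosome. Values in brackets after a ratio are exact 95% binomial intervals on the summed reads, and they cover counting error only. The corrected log2 ratio had an SD of 0.48 over all bins, against 0.36 from counting alone, so the intervals are narrower than the true spread between the libraries.

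Tagged GZF1 marked 121 sites. A site was a bin with at least 4 times the local background (the median density of flanking bins, up to 10 kb away either way) with anti-FLAG in both Gzf1-Flag lines and an input density of at most 3, and it needed 40 reads in knockout and control together. This definition and its limit on input were set after the knockout and control values had been seen, and the limit bears on the counts, as given below. Adjacent site bins were merged. The IG-DMR is 1 of the 121, and the other 120 are the subject here. Their places were as follows: 30 lay within 1 kb of an annotated RefSeq transcript start, 28 inside a gene, 28 within 5 kb of a gene end and 34 farther from any gene. The annotation used here gives no exons, so exonic and intronic positions were not told apart.

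The promoters of 4 sites are shown because they stand at named transcript starts on both sides of the comparison, Cald1, Pdzrn3 and Vat1l among the sites lower in the knockout and Ptpn13 among those higher. Each run covers 250 bases before to 50 bases after a transcript start (RefSeq, GRCm38.p6), 5′ to 3′ on the gene's strand, and capitals mark CpG dinucleotides, the bases that carry DNA methylation. The windows are chr6:34709194-34709493 on the plus strand for Cald1, chr6:101377848-101378147 on the minus strand for Pdzrn3, chr8:114205390-114205689 on the plus strand for Vat1l and chr5:103424942-103425241 on the plus strand for Ptpn13.
Cald1: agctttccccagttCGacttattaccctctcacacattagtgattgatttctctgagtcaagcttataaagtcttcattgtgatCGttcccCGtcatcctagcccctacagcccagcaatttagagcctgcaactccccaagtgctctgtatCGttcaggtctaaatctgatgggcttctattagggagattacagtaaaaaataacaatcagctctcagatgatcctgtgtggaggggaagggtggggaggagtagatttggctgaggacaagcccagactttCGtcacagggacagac
Pdzrn3: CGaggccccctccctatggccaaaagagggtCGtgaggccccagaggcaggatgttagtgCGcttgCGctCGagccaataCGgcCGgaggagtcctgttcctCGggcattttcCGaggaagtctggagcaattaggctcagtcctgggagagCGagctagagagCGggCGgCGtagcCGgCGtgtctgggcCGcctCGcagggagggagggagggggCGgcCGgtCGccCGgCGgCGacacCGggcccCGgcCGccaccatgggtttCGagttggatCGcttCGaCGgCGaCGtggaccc
Vat1l: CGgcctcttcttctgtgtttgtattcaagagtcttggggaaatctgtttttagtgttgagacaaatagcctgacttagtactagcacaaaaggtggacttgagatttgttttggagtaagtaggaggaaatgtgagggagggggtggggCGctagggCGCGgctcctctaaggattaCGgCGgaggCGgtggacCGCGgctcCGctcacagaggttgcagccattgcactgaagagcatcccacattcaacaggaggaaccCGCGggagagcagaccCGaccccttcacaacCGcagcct
Ptpn13: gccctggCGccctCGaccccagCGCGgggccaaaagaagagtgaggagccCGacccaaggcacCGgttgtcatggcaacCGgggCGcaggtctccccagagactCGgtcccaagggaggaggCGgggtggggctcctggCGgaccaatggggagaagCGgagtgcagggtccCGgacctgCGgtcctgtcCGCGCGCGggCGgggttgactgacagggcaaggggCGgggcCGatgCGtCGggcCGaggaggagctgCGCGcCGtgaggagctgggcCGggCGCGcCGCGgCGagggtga
The Cald1 window held 5 CpG dinucleotides at 47% G and C, and the Pdzrn3 window 32 at 68.7%. The Vat1l window held 14 at 54.3%, and the Ptpn13 window 33 at 74%. The sites lower in the knockout included both a CpG-poor and a CpG-rich promoter.

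At the tagged sites, knockout anti-GZF1 signal was lower than control more often than it was higher. Of the 120 sites, 14 had an interval wholly below 1 and 7 wholly above 1, and 75 had a ratio below 1. By single bins, 19 of the 139 site bins (13.7%) had an interval below 1, against 5.94% of all bins, and 8 (5.76%) had one above 1, against 5.93% of all bins. The median log2 ratio over the 120 sites was -0.09. With the ratio corrected by the surrounding 1 Mb in place of the chromosome, 13 sites lay below 1, 6 above, and the median was -0.08. By single bins, 16 site bins (11.5%) then lay below 1, against 5.46% of all bins, and 8 (5.76%) above, against 5.48%.

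**Figure D1:**
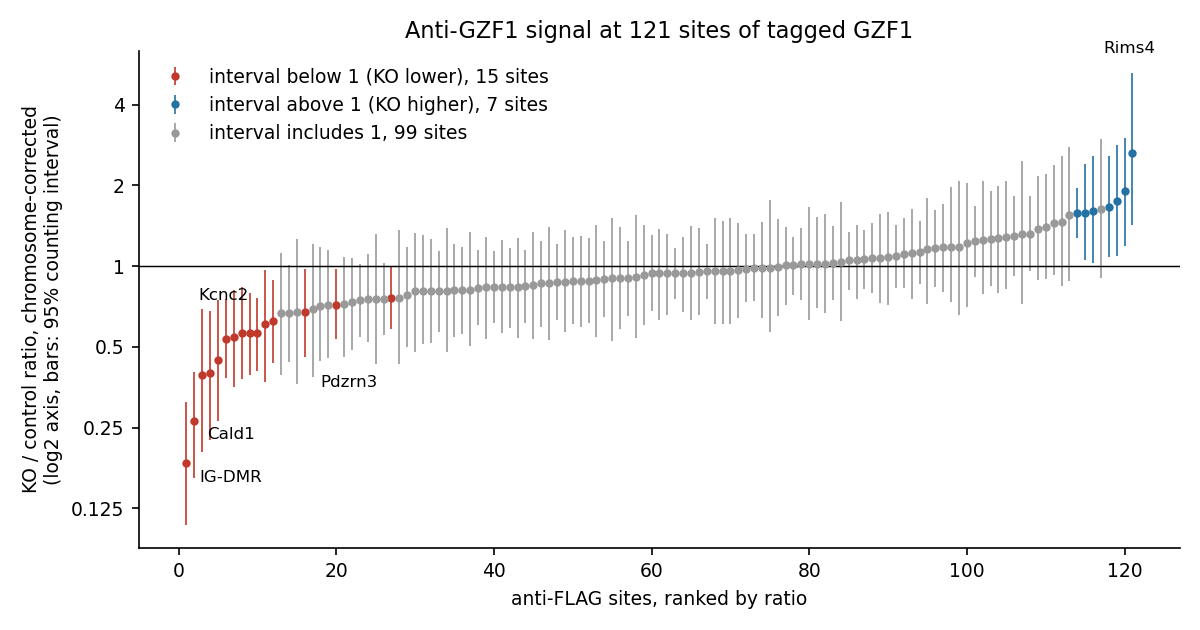
Knockout over control anti-GZF1 ratio at each of the 121 sites of tagged GZF1, ranked from low to high on a log2 axis, with exact 95% counting intervals as bars. The IG-DMR and the Cald1 site lie at the low end, 15 intervals lie below 1 (the IG-DMR among them), 7 lie above 1 and 99 include 1.

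The share of sites lower in the knockout rose with the floor set on the tagged signal. With tagged signal at 3, 4 and 6 times local background as the floor, there were 388, 120 and 36 sites. Of these, 7.22%, 11.7% and 16.7% had an interval below 1, and 4.12%, 5.83% and 2.78% had one above 1. In single bins with input at most 3, the 127 bins at 4 to 8 times local background had a median log2 ratio of -0.085, and the 14 bins at 8 times or more had -0.27 (the IG-DMR included). Bins below local background, 1473424 in number, had a median of 0.002. The sets by floor overlap, since each higher floor selects from the one below, and the trend was not tested. In separate classes without the IG-DMR there were 56 sites at 4 to 5 times local background, 28 at 5 to 6, 23 at 6 to 8 and 13 at 8 or more. Their intervals lay below 1 at 5, 3, 3 and 3 sites and above 1 at 6, 0, 0 and 1. Their median log2 ratios were -0.04, -0.08, -0.18 and -0.11, which is not a steady fall. With the 1 Mb correction these were -0.05, -0.03, -0.13 and -0.23. Intervals then lay below 1 at 2, 5, 3 and 3 sites and above 1 at 5, 0, 0 and 1. Of all single bins, 5.94% lay below 1 and 5.93% above with the chromosome correction, and 5.46% and 5.48% with the 1 Mb correction.

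The limit on input mattered for the higher side. Without it there were 168 sites, of which 15 lay below 1 and 23 above. The bins it leaves out were 81 in number, with a median input density of 4.84 and a median log2 ratio of 0.10, and 26 of them had an interval above 1 against 3 below. Without regard to input, the 35 bins at 8 times local background or more had a median log2 ratio of 0.05. Of these, 14 had an interval above 1 and 5 below, so they leaned to the higher side. The rise of lower sites with tagged signal given above therefore holds only with the limit on input.

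Both libraries carried little anti-GZF1 signal above background at the tagged sites. In the centre bin of the 120 sites the mean density was 1.49 in the knockout and 1.62 in the control. At 1 kb on either side it was 1.30 and 1.38 in the knockout, against 1.32 and 1.39 in the control. Cas9 input had 1.43 in the centre bin and H3K27ac 1.88. At 10 kb before the centre, input had 1.02, the control 1.12 and the knockout 1.13. Input thus rose at the sites as well, so these means do not by themselves measure occupancy. In wild-type cells the same centre bins had a mean anti-GZF1 density of 3.43 in Cas9 and 4.07 in RGM cells, and anti-FLAG reached 8.88 in Cas9 and 7.55 in RGM. The control library was thus well below the wild-type Cas9 library at the same sites. The labels do not say how control and wild-type Cas9 cells differ.

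**Figure D2:**
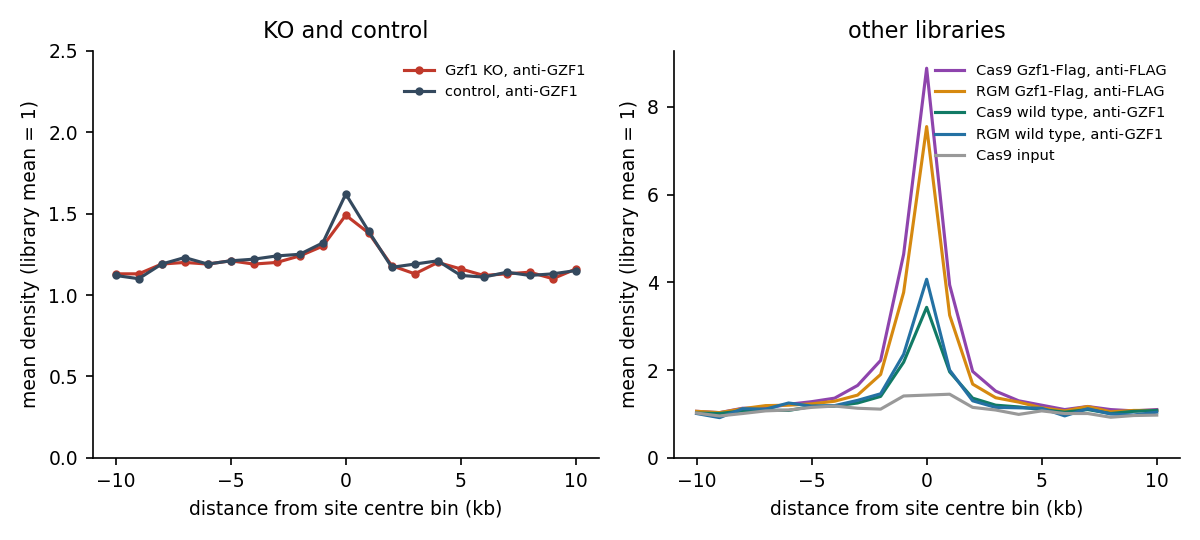
Mean density (library mean 1) by distance from the centre bin over the 120 tagged sites other than the IG-DMR, for the knockout and the control on the left and for 5 other libraries on the right, with different vertical scales. The knockout peak (1.49) is lower than the control peak (1.62), and both are far below wild-type anti-GZF1 (3.43 and 4.07). Input has 1.43 in the centre bin.

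By place, the sites with an interval below 1 were near or inside genes, in small counts. Within 1 kb of a transcript start, 4 of 30 sites had an interval below 1 and 1 above, and 23 had a ratio below 1. Inside genes the counts were 5 below and 2 above of 28, and within 5 kb of a gene end they were likewise 5 and 2 of 28. Of the 34 sites farther from genes, 0 had an interval below 1 and 2 had one above. Of all single bins, 5.94% had an interval below 1 and 5.93% above. With the 1 Mb correction the counts were 5 below and 1 above at transcript starts and 3 and 2 inside genes. They were 5 and 1 near gene ends and 0 and 2 farther away, against 5.46% and 5.48% of all bins. Whether these places differ from each other was not tested.

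Cald1 had the lowest ratio of the 120 sites. It encodes caldesmon, an actin- and calmodulin-binding protein that restrains actomyosin contraction. The site, chr6:34709001-34710000, covers an internal transcript start of the gene (chr6:34598495-34775469), whose promoter is the first one printed above. The knockout had 25.4 reads there and the control 122.55. As densities these were 0.771 and 3.43, a ratio of 0.265 (0.162 to 0.402). The other libraries had a peak in the same bin, with a density of 8.19 in wild-type Cas9 anti-GZF1, 9.66 in RGM anti-GZF1, 19 in Cas9 anti-FLAG and 16.8 in RGM anti-FLAG, while input had 1.72 and H3K27ac 2.58. Control signal stood at 2.35 times its local background, and knockout signal at 0.673 times. It was the single site bin outside the IG-DMR that met the stricter call used for all bins below, and the 1 Mb correction left its ratio at 0.266.

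Pdzrn3, which encodes a PDZ-domain ubiquitin ligase of muscle and endothelium, had a site at its transcript start, chr6:101377001-101379000. The knockout had 61.05 reads and the control 138.5, a ratio of 0.563 (0.408 to 0.763). The tagged signal was 10.8 times local background in its stronger bin, and wild-type anti-GZF1 density was 6.95 in Cas9 and 11.4 in RGM cells. Vat1l, a gene of the quinone oxidoreductase family, had the site with the strongest tagged signal of those named, 13.7 times local background, at chr8:114205001-114206000. There the knockout had 52.4 reads and the control 70.25, a ratio of 0.674 (0.46 to 0.975). The Pdzrn3 value was the clearer of the pair, since the upper bound at Vat1l came close to 1.

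Several lower sites lay inside or at the far end of genes. At the end of Kcnc2, a voltage-gated potassium channel gene, the bin chr10:112465001-112466000 held 16.35 reads in the knockout and 45 in the control, a ratio of 0.393 (0.203 to 0.693). Inside Prkar2b, a regulatory subunit gene of protein kinase A, chr12:32009001-32011000 held 53.6 reads in the knockout and 119 in the control, a ratio of 0.536 (0.384 to 0.751). The knockout had far fewer reads than the control at both, but the counts were small. In the plots of single sites, the Cald1 bin of the control stands clear of its surroundings, while at Kcnc2 other knockout bins nearby are lower than the site.

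**Figure D3:**
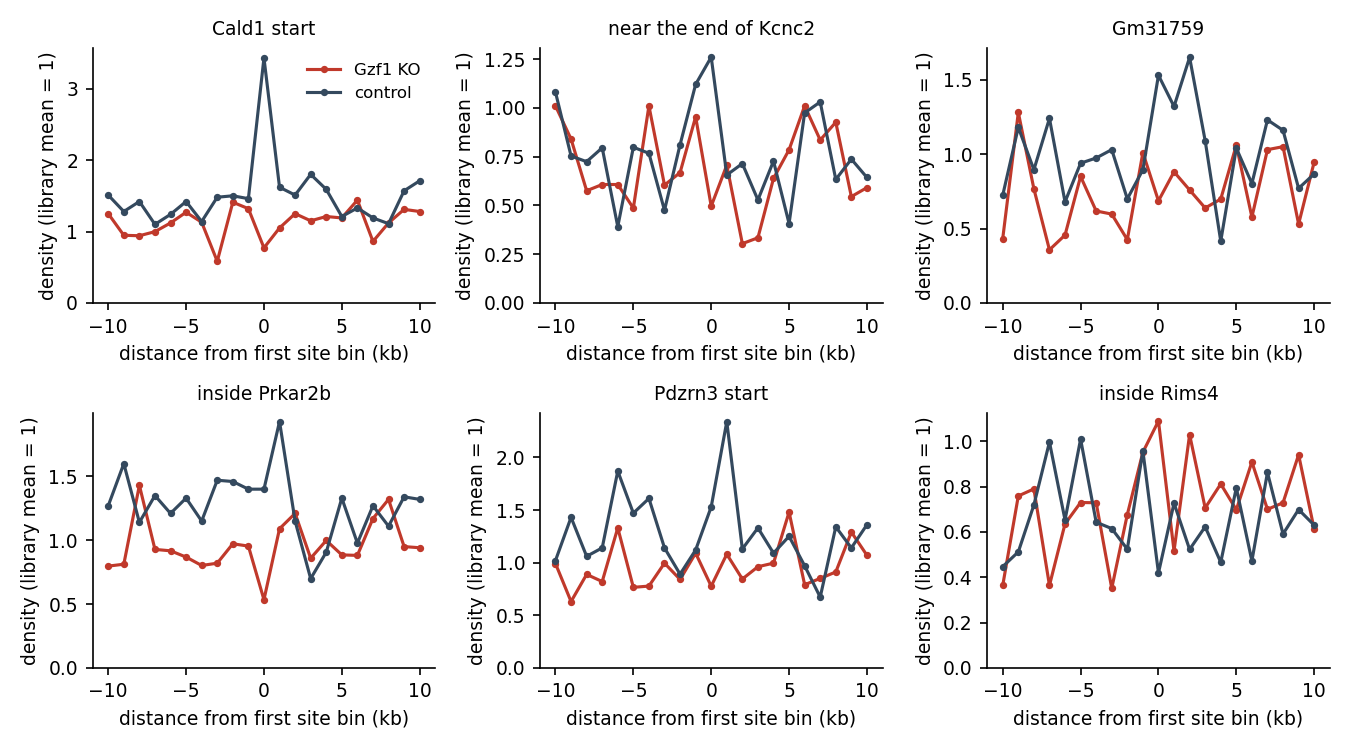
Density (library mean 1) by distance from the first bin of 6 sites in the knockout and the control, with a vertical scale of its own in each panel. At Cald1 the control reaches 3.43 and the knockout 0.771, and at Rims4, the highest ratio, the knockout has 1.09 and the control 0.419.

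The other sites with an interval below 1 were of smaller or less certain difference. The lncRNA gene Gm31759 had 22.6 reads in the knockout and 54.7 in the control, a ratio of 0.447 (0.265 to 0.748). Cep120, a centriole gene, had a ratio of 0.542 (0.355 to 0.814), and Mideas, a subunit gene of a histone deacetylase complex of mitosis, 0.561 (0.379 to 0.836). The Cep120 value covers only part of its tagged peak. The bin just before that site had a Cas9 anti-FLAG density of 7.99, against 7.2 in the site. It held 92.2 reads in the knockout and 75.6 in the control, so the peak as a whole was not clearly lower. The lncRNA gene Gm33257 had 0.562 (0.393 to 0.797), Agap1 0.606 (0.37 to 0.967) and the site at Gm31676 and LOC115487949 0.625 (0.437 to 0.887). A bin inside Gm21154 had 0.716 (0.535 to 0.973), and one near the vomeronasal receptor gene Vmn1r238 had 0.759 (0.583 to 0.998). With the 1 Mb correction the intervals at Agap1, Gm21154 and Vmn1r238 included 1. Some of these were not peaks of tagged GZF1 alone. At Gm31676 and LOC115487949 the Cas9 libraries stood at 4.21 times local background with anti-FLAG, 6 times in input and 5.4 times with H3K27ac. At Gm21154 these were 4.42, 3 and 3.47 times, and near Vmn1r238 they were 4.04, 1.5 and 5.57 times.

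On the other side, Rims4 had the highest ratio. It encodes a small protein of the presynaptic active zone. The bin chr2:163871001-163872000 inside the gene held 35.8 reads in the knockout and 15 in the control, a ratio of 2.65 (1.42 to 5.24), with a tagged density of 6.7 in Cas9 and 9.22 in RGM cells. A site away from genes, chr12:8618001-8619000, had 51.9 reads in the knockout and 32.55 in the control, a ratio of 1.9 (1.19 to 3). At Ptpn13, a tyrosine phosphatase gene, the site chr5:103424001-103425000 ends 192 bases before the start whose promoter is printed above. It had 59.45 reads in the knockout and 42.45 in the control, a ratio of 1.58 (1.05 to 2.41). At Ptk2b, a focal adhesion kinase gene whose tagged density was 15.6 in Cas9 cells, the knockout had 53.9 reads and the control 39, a ratio of 1.66 (1.08 to 2.58). The ratio was 1.75 (1.09 to 2.82) inside Ropn1, 1.6 (1.03 to 2.57) near Cnep1r1 and 1.58 (1.27 to 1.96) at chr6:47771001-47772000, away from genes. With the 1 Mb correction the interval near Cnep1r1 included 1. The sites away from genes were not peaks of tagged GZF1 alone. At chr12:8618001-8619000 the Cas9 libraries stood at 4.27 times local background with anti-FLAG, 3.33 times in input and 5.22 times with H3K27ac. At chr6:47771001-47772000 they stood at 4.24 times with anti-FLAG and 6.75 times with H3K27ac, with no value for input. In all, 99 of the 121 sites had an interval that included 1.

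The letters TGCGCG, or CGCGCA on the other strand, were searched in the promoters as a short word with CpG dinucleotides. They occurred in 12.6% of 32851 RefSeq promoters of the same 300 bases. At the sites they occurred in 11 of 37 promoters (29.7%), at 8 of the 27 sites with a promoter. These counts include the IG-DMR site, whose promoter (Gm34081) held 0 copies. Promoter windows at 1 site can overlap and count the same letters again, as at 9330159M07Rik and Gm26611. A promoter window can also run beyond its site, as at Ptpn13, so a copy need not lie in the site. Those of Cald1, Pdzrn3 and Vat1l hold 0 copies and that of Ptpn13 holds 1. A match or its absence in this window is a description of the letters.

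Over all autosomal bins the knockout was lower and higher about equally often. A bin was called at a 2-fold difference whose interval of two-sided error 0.0001 lay wholly beyond 1, among the 2308789 bins (93.7%) with at least 40 reads in both libraries together. By this rule 3183 bins were lower in the knockout (0.138%) and 3049 were higher (0.132%). The log2 ratio ran from -1.19 at the 1st percentile to 1.16 at the 99th. Merged over gaps of up to 1 kb these made 3153 lower and 3024 higher regions, and 25 each way had 2 or more bins. The longest lower region had 8 bins and was the IG-DMR, with 109.35 reads in the knockout and 494 in the control, a ratio of 0.264 (0.211 to 0.324). The longest higher region had 3 bins.

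Neither lower nor higher bins stood above their local background in the other libraries. The median density over local background was 1 for lower bins, for higher bins and for all bins in each of the 6 other libraries. As plain density, the lower bins had a median of 1.03 and the higher bins 0.936 in Cas9 anti-FLAG, 0.99 and 0.89 in wild-type Cas9 anti-GZF1, and 1.02 and 0.802 in input. Median density in the called bins themselves was 0.44 in the knockout and 1.47 in the control for the lower set, and 1.52 in the knockout and 0.484 in the control for the higher set. In both sets the libraries lay on opposite sides of the mean.

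Among the 15 lower regions whose interval bound nearest to 1 lay farthest from it, Cald1 and the IG-DMR were the 2 with tagged signal. The others had anti-FLAG between 0.635 and 1.65 times local background. A bin without a gene at chr2:137752001-137753000 had 3 reads in the knockout and 51.95 in the control. The bin at the lncRNA gene Gm52107 inside Cacna1d, an L-type calcium channel gene, had 2 reads in the knockout and 43.7 in the control, and one inside Agbl4, a tubulin deglutamylase gene, had 2 reads in the knockout and 45.45 in the control. The remaining ones were inside Rnf24, Shld1, Lurap1l, Cnbd2, Celf2 and Ccdc60, at the starts of Gm52562 and Ptpra, and in 3 places without a gene. The regions inside Rnf24 (3 bins) and Cnbd2 (2 bins) and at Gm52562 and Ptpra (2 bins) held 18 to 29 reads in the knockout, and the single bins other than Cald1 held 2 to 7.9. Most of the 15 lay in long segments where the knockout was low. Those at chr2:137752001-137753000, Rnf24, Shld1, Cnbd2, and Gm52562 and Ptpra lie in one of chromosome 2 (segment ratio 0.743). Agbl4 and Lurap1l lie in one of chromosome 4 (0.809) and Gm52107 in one of chromosome 14 (0.794). With the 1 Mb correction the ratio inside Rnf24 went from 0.259 to 0.351 and inside Cnbd2 from 0.221 to 0.289.

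The 15 higher regions chosen by the same bound were alike in reverse. The first, chr1:142771001-142772000, had 56.4 reads in the knockout and 7.35 in the control. Inside Crtac1, a cartilage extracellular matrix gene, 1 bin had 52.2 reads in the knockout and 5 in the control, and inside Gria4, an AMPA receptor subunit gene, 3 bins had 136.5 reads in the knockout and 41.4 in the control. The others were inside 2610307P16Rik, Pld5, 9430041J12Rik and LOC108168713 or without a gene. Anti-FLAG there ran from 0.582 to 2.12 times local background. The first region and the bin inside Pld5 lie in a segment of chromosome 1 where the knockout was high (segment ratio 1.27). The region inside Gria4 lies in one of chromosome 9 (1.29), and several regions without a gene lie in these 2 segments too. With the 1 Mb correction the first went from 7.71 to 6.37, Pld5 from 8.44 to 7.3 and Gria4 from 3.41 to 2.67.

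Long chromosome segments differed between the libraries as well. The uncorrected median ratio of a chromosome ran from 0.85 on chromosome 6 to 1.28 on chromosome 19. The segment of chromosome 2 from 116000001 to 163000000, which holds Gzf1, had a ratio of 0.743, with a mean density of 0.651 in the knockout and 0.876 in the control, against 1.05 in wild-type Cas9 cells and 1.04 in input. It held 453 of the 3183 lower bins and 5 higher ones. The segment of chromosome 9 from 3000001 to 34000000 had a ratio of 1.29 and held 223 higher bins and 2 lower. With the 1 Mb correction, chromosome 2 had 180 lower bins in place of 520, and there were 2439 lower (0.106%) and 2419 higher bins (0.105%) in all, of which 2003 and 1972 were also called with the chromosome correction. DNA copy number and precipitated signal cannot be told apart in such segments, because the input used here is of Cas9 cells with neither of these genotypes named.

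**Figure D4:**
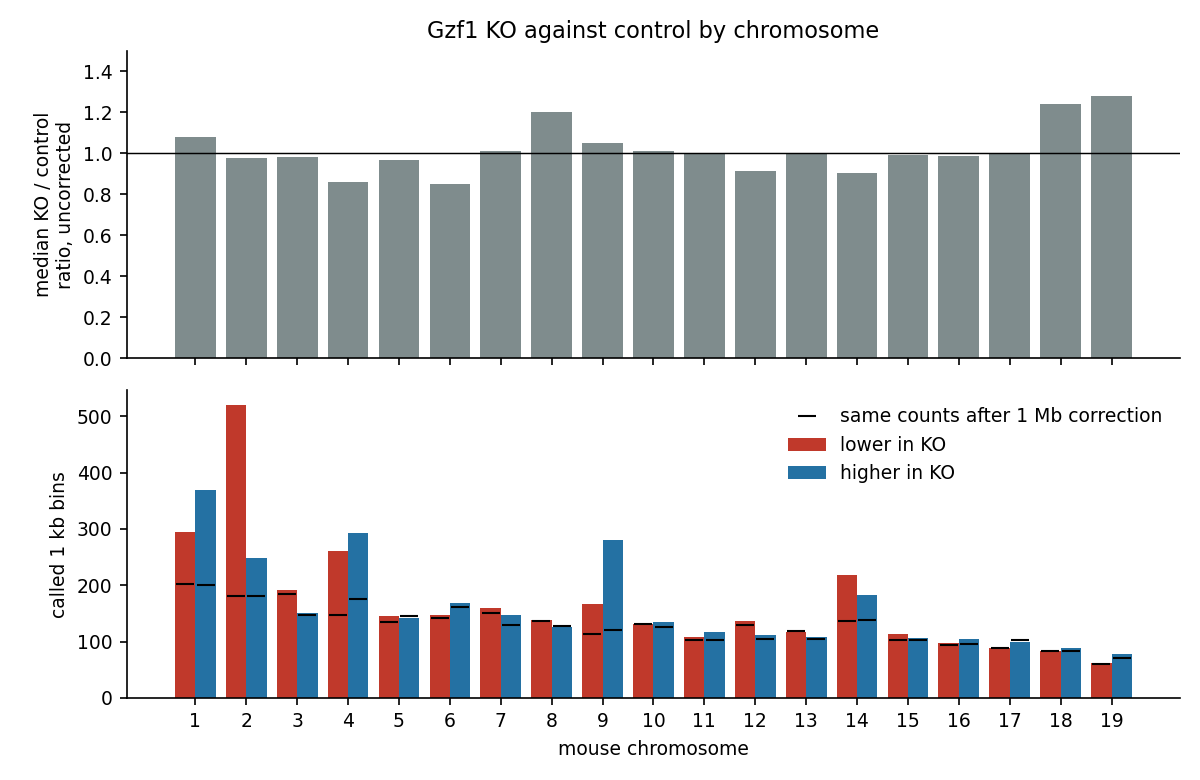
Uncorrected median knockout over control ratio (top) and number of 1 kb bins called lower or higher in the knockout (bottom) by mouse autosome, with the counts after the 1 Mb correction as dashes. Chromosome 2 has 520 lower bins before that correction and 180 after it.

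The Gzf1 gene itself (chr2:148679384-148692949) showed no loss of reads beyond its segment. Its 14 bins held 317 reads in the knockout and 452 in the control. The ratio was 0.778 (0.672 to 0.901) corrected by chromosome and 0.998 (0.862 to 1.15) corrected by the surrounding 1 Mb, and 0 of the 12 bins with enough reads had an interval below 1, while 2 had too few. A small edit would not show in 1 kb bins, so these reads do not check the genotype. The X chromosome, left out of all counts, had a density of 0.825 in the knockout and 0.967 in the control, against 0.395 to 0.641 in the other 6 libraries.

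Around gene starts few windows differed. A window ran from 1 kb before to 1 kb after the start (after either end where the strand was not known), and 46714 of 47042 had enough reads. It was called at 1.5-fold with the same strict interval. By this rule 188 windows were lower (0.402%) and 154 higher (0.33%). With the 1 Mb correction there were 51 lower (0.109%) and 80 higher (0.171%). Overlapping windows of neighbouring genes share reads, as at Rassf2 and Gm31179 or Tmem59 and Tceanc2.

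Of the 10 lowest gene windows, 8 lay on chromosomes 2 and 4, in the segments where the knockout was low. Rassf2, a Ras-association tumour suppressor gene, had 79 reads in the knockout and 199.7 in the control, a ratio of 0.439 (0.334 to 0.572), and 0.594 with the 1 Mb correction. Sun5, a nuclear envelope gene of sperm, had 34 reads in the knockout and 104.25 in the control, a ratio of 0.362 (0.239 to 0.539). Tmem59 and Tceanc2 shared a window with a ratio of 0.502 (0.403 to 0.627), no longer called with the 1 Mb correction. The lowest of all was 4933416E03Rik at 0.305 (0.197 to 0.461), and the 2 outside those chromosomes were Gm21016 at 0.329 (0.215 to 0.5) and Gm35097 at 0.389 (0.267 to 0.553). The others were Gm52562 and 8030443G20Rik.

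The 10 highest windows included Mmp1a, an interstitial collagenase gene, with 140 reads in the knockout and 59 in the control, a ratio of 2.45 (1.8 to 3.39). Cldn19, a tight junction claudin gene of the kidney, had 124.7 reads in the knockout and 72 in the control, a ratio of 2.18 (1.62 to 2.97). Gpa33, an intestinal surface antigen gene, had a ratio of 2.01 (1.56 to 2.59). Mir7081, Gm24762, Gm25155, Rgl3, Gm36414 and the 5S ribosomal RNA genes n-R5s144 and n-R5s121 made up the rest. Mmp1a, Mir7081, Rgl3 and Gm36414 lie in the segment of chromosome 9 where the knockout was high. Gpa33 lies in a segment of chromosome 1 with a ratio of 1.27. Cldn19 and Gm24762 lie on chromosome 4 beyond its low segment, and the median ratio of that chromosome was 0.862. The 1 Mb correction ended the call at Mir7081 and at the shared window of Rgl3 and Gm36414. With it Mmp1a had 1.91 (1.4 to 2.63), Cldn19 1.86 (1.39 to 2.53) and Gpa33 1.71 (1.33 to 2.21), still called.

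The 5S ribosomal RNA genes stood out among the higher windows and were looked at after their values were seen. They encode the small RNA of the large ribosomal subunit and lie mostly in a tandem array on chromosome 8. The array windows (chr8:123537001-123624000, 84 bins, 41 genes) held 6170 reads in the knockout and 3648 in the control, a ratio of 1.53 (1.47 to 1.59). Of the 41 array genes 21 were called higher, against 0.33% of all windows, and they share bins. With the 1 Mb correction 12 of the 64 genes of this name were called higher. The other 23 genes of this name, elsewhere in the genome, had 2639 reads in the knockout and 2909 in the control, a ratio of 0.977 (0.927 to 1.03), and 0 were called higher. The array had a density of 2.23 in the knockout and 1.21 in the control, against 0.0511 to 0.0689 in wild-type Cas9 anti-GZF1, input and both anti-FLAG libraries. With so few reads in the tagged libraries, the array could not be set against tagged GZF1. How reads of repeats were handled is not given in the sources used here, and its part in the difference was not tested.

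Imprinted genes were looked at first among the gene lists, because of the aim of the series. Of 66 measured windows 1 was called lower and 0 higher, where 0.402% of all gene windows were lower and 0.33% higher, and the median log2 ratio was -0.03, against 0.01 over all gene windows. By the 95% interval, 6 of the 66 lay below 1, where 7.99% of all gene windows did, and 4 above, where 8.88% did. With the 1 Mb correction 4 of the 66 lay below and 3 above, where 2926 and 2981 of all 46714 gene windows did. The call was Meg3, the maternally expressed lncRNA that is controlled by the IG-DMR, with 59 reads in the knockout and 145 in the control, a ratio of 0.484 (0.352 to 0.66). With the 1 Mb correction it was 0.558 (0.405 to 0.76) and no longer met the call. Its start had an anti-FLAG density of 1.21 in Cas9 cells. Dlk1, the paternally expressed Notch-related gene on the other flank, had 99.95 reads in the knockout and 145.75 in the control, a ratio of 0.816 (0.626 to 1.06). Dio3, the deiodinase gene at the far end, had a ratio of 0.78 (0.59 to 1.01). With the chromosome correction, the other windows with intervals below 1 were Mcts2, Mkrn3, H13, Peg12 and Osbpl5. Since the 6 together are near the share of all gene windows, they are not read as a difference of the list. The highest of the list was Ppp1r9a at 1.56 (1.22 to 1.99).

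Developmental genes with bivalent promoters in stem cells had 1 of 40 windows lower and 0 higher, where 0.402% of all gene windows were lower and 0.33% higher. It was Nkx2-2, a homeobox gene of the ventral neural tube, with 56.85 reads in the knockout and 135.65 in the control, a ratio of 0.465 (0.335 to 0.638). It lies in the low segment of chromosome 2, and with the 1 Mb correction it had 0.624 (0.45 to 0.857) and was not called. Neurog1, the highest of that list, had 1.44 (1.13 to 1.86).

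No window was called in the 9 other lists. Of the 35 genes of GDNF-RET signalling, the pathway that first named GZF1, the lowest was the kinase gene Src at 0.613 (0.45 to 0.825) and the highest the ligand gene Artn at 1.5 (1.19 to 1.9). Src lies on chromosome 2, and its interval included 1 with the 1 Mb correction (0.822, 0.604 to 1.11). In the 28 pluripotency genes the range was from Klf4 at 0.79 to Lin28a at 1.48. Pou5f1 had 149 reads in the knockout and 182.75 in the control, a ratio of 0.881 (0.704 to 1.1), Sox2 had 0.899 (0.737 to 1.1) and Nanog 0.923 (0.751 to 1.13). The starts of these 3 stem-cell markers had an H3K27ac density of 2.32, 3.02 and 1.99 in Cas9 cells, above the library mean.

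In the remaining lists the lowest and highest members were these. All such list extremes, here and in the lists above, are given with the chromosome correction unless a 1 Mb value is stated. A member inside a long segment thus also carries the difference of that segment. A member elsewhere on the same chromosome can be shifted the other way, since the chromosome's median ratio includes the segment. High values such as that of Artn are therefore not read as differences of the gene. Among DNA methylation and imprint maintenance genes they were Dnmt3b, a de novo methyltransferase gene, at 0.683 and Dnmt1, the maintenance enzyme gene, at 1.45, and both intervals included 1 with the 1 Mb correction. Among germline genes they were Tuba3a at 0.706 and Mael at 1.5, among Hox genes Hoxd10 at 0.797 and Hoxd12 at 1.43, and among ribosomal protein genes Rps24 at 0.756 and Rps10 at 1.42. Nucleolar and ribosome biogenesis genes ran from Nop56 at 0.619 to Gar1 at 1.22, other BTB zinc-finger genes from Zbtb11 at 0.693 to Zbtb17 at 1.57, and skeletal dysplasia and joint genes from Col9a1 at 0.63 to Acan at 1.25. List medians lay between -0.10 and 0.07 on the log2 scale. These are differences in precipitated chromatin at gene starts, and expression was not measured in the table.

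**Figure D5:**
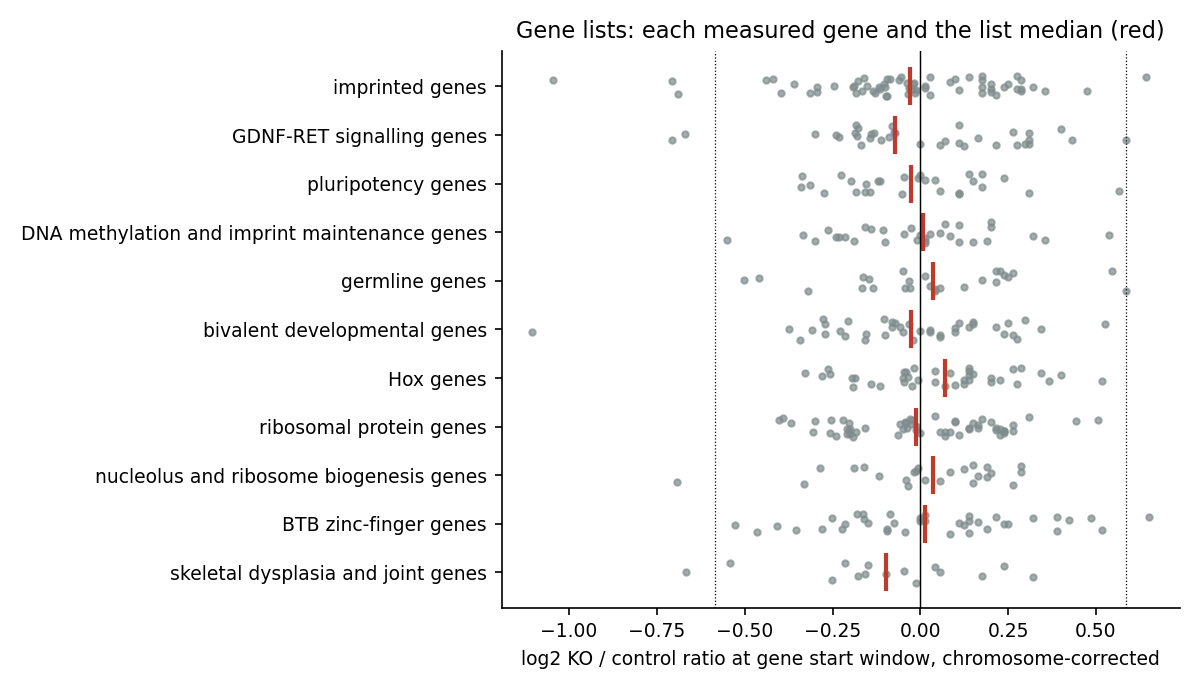
Log2 knockout over control ratio at the start window of each measured gene in 11 lists (grey points, spread vertically for legibility) and the list median (red mark), with dotted lines at 1.5-fold either way. All medians lie between -0.10 and 0.07, and Meg3 and Nkx2-2 are the points near -1.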

How the data were processed

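The submitters' processing notes name cutadapt, Bowtie2 2.5.4, SAMtools and deepTools, and the build mm10. The values as deposited by the authors are estimated counts of reads per 1 kb bin, in steps of 0.05. Mapping-quality and duplicate filters are not given in the sources used here. Depth in units of 1e6 reads was 85.9 in the knockout and 94.2 in the control, and 10.1 to 70 in the other libraries.

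Densities, ratios and exact Clopper-Pearson intervals (counts rounded to whole reads for intervals) were computed in Python 3.11.15 (numpy 2.4.6, pandas 2.3.3, scipy 1.17.1, matplotlib 3.10.9), with no count model because each side has 1 library. Gene windows used RefSeq starts (GRCm38.p6) for 25748 genes and both gene ends for 21294. Alternatives were other corrections, read minimums, intervals, folds, window sizes and limits on input.

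Regions and gene windows were ranked by the strict interval's bound nearest to 1. Those where this bound lay farthest from 1 were named, 15 regions and 10 gene windows each way. Each list's called members and its lowest and highest member were named too. Sites are named where their interval excludes 1, and 1 such site is not reported here. The comparison, the sites and the gene lists were chosen with earlier results of these data known. The 5S genes, the site definition and its limit on input were chosen after the values were seen.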

Additional observations from a re-analysis of the deposited data

How the results depend on the processing

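Counts of bins and windows moved with the rule. Against 3183 lower and 3049 higher bins, there were 4914 and 4822 without a chromosome correction, 778 and 772 with at least 80 reads, 51718 and 46968 with a 95% interval, 1028 and 669 in windows of 3 bins, where lower outnumbered higher, and 1842 and 1958 outside the chromosome segments (an alternative added after the data were seen). For gene windows, 188 lower and 154 higher became 429 and 521 without correction, 51 and 80 with the 1 Mb correction, 35 and 23 at 2-fold, and 817 and 681 with a 95% interval. The changes with fold, interval and read minimum follow from looser or stricter rules. For the others the cause was not tested. For tagged sites, 14 below and 7 above 1 became 28 and 16 with a floor of 3 times local background and 6 and 1 with 6 times, and without the limit on input 15 and 23, the order of the sides turning. The median of bins at 8 times or more was 0.05 without that limit and -0.27 with it. These site alternatives were added after the data were seen. Under the 1 Mb correction the intervals at Asrgl1 (ratio 0.659) and near Micu2 (0.701) lay below 1. No paired analysis was possible because each genotype has 1 library. Depth limits single bins, which average 32.9 reads in the knockout and 35.8 in the control. No library could be left out.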

Other observations

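In 57945 bins the knockout and control together had at least 40 reads while the 6 other libraries together had at most 6. Of these bins 54 were lower (0.0932%) and 111 higher (0.192%) in the knockout by the strict call, against 0.138% and 0.132% of all bins. Windows of the Snord115 and Snord116 genes, the snoRNA clusters of the imprinted Prader-Willi region, were of this kind: over 17 genes the median density was 1.59 in the knockout and 1.36 in the control, against 0.0141 in wild-type Cas9 anti-GZF1. Of the 17, picked by name, 1 was called higher and 0 lower. The higher one was Snord116l17, with 240.65 reads in the knockout and 147.45 in the control, a ratio of 1.75 (1.43 to 2.17). Among snoRNA genes of other names on chromosome 7, Gm22274 (chr7:59565218-59565296) was called lower, at 0.427 (0.305 to 0.592). Gm25155 (chr7:59700878-59700971) was called higher, at 2.34 (1.67 to 3.27). Of 1276 measured windows of snoRNA genes, 12 were called lower and 4 higher. With the 1 Mb correction these were 5 and 4. Neighbouring windows share reads, so the calls are not separate. LOC115488053 and LOC115488061 on chromosome 12, both called lower, hold the same 83 reads in the knockout and 197.9 in the control. For comparison, 386 windows of tRNA genes had 2 lower and 0 higher, and 1103 windows of olfactory receptor genes had 2 lower and 2 higher, with a median log2 ratio of 0.03 in both, where 0.402% of all gene windows were lower and 0.33% higher. These families were chosen after the values were seen.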
